A study of Mus musculus with 10 samples.

Results

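The glycolytic enzyme genes are 10 mouse genes whose products carry glucose to pyruvate and on to lactate: Hk2, Gpi1, Aldoa, Tpi1, Gapdh, Pgk1, Pgam1, Eno1, Pkm and Ldha. They were taken by name from the reads that align to mRNA and carry a passing tail estimate, and all 10 of 10 were found, among 13272 genes with such reads. Together they gave 59578 reads, 2.92% of all kept reads. The cells were P19, a male mouse embryonal carcinoma line that is pluripotent and can be driven to form neurons; undifferentiated cells were used here in every group. They were transfected with a pool of scrambled siRNAs (siCtl) or with 1 siRNA against Larp1 (siLarp1), at 50 nanomoles, and collected at 24 h or, after another transfection of the same kind, at 48 h. Larp1 encodes an RNA-binding protein of TOP mRNAs, the mRNAs that begin with a run of pyrimidines and encode ribosomal proteins and translation factors. The comparison asks here what happens to the tails and levels of abundant mRNAs outside the TOP class when Larp1 is reduced. Each treatment had 3 libraries at 24 h and 2 at 48 h, named by the numbers 19, 21 and 22 (24 h) and 24 and 25 (48 h). Per the study's methods, the replicates were biological and were barcoded and pooled. The siCtl and siLarp1 pools at 24 h were separate, so a difference between pools and one between treatments cannot be told apart at that time. All 4 libraries at 48 h came from a common pool.

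Kept reads numbered 289717 to 423365 in the siCtl libraries at 24 h and 112713 to 178690 in the other 7. Larp1 itself was at 81.7 ± 5.04 RPM (reads per 1000000 kept reads) in siCtl at 24 h and 32.4 ± 12.9 in siLarp1 (mean ± SD, n = 3 and 3), and 146 ± 32.1 against 21.7 ± 4.51 at 48 h (n = 2 and 2). The groups did not overlap at either time, with exact two-sided permutation p = 0.1 at 24 h and, at both times, the smallest value the design allows. The siLarp1 values rest on 13 and 6 Larp1 reads in all. Of 9 embryonal carcinoma markers, 8 had reads in all 10 libraries, with Pou5f1 at 2278 to 3028 RPM, and Zfp42 had none. The 6 neuron markers summed to 213 to 372 RPM per library, of which Stmn2 made up 151 to 279, and Rbfox3 gave 1 read.

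Glycolysis converts glucose to pyruvate in the cytosol and yields ATP and NADH. Proliferating and pluripotent cells use it heavily and turn much of the pyruvate into lactate. Its mRNAs are among the most abundant outside the translation machinery and do not belong to the TOP class. A poly(A) tail is added to an mRNA downstream of a hexamer, usually AATAAA, is bound by poly(A)-binding proteins, and shortens with age in the cytoplasm. Direct RNA sequencing reads each native molecule from the tail inwards, so that 1 read gives both the gene and the length of that molecule's tail. Because 1 molecule gives 1 read, read counts were compared between genes without division by length.

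The ends of the reads show where each tail begins. The 30 bases up to the most frequent read end of each gene's main transcript are given below as they stand in the GENCODE M21 transcript sequences (build GRCm38, the assembly of mm10), with the hexamer AATAAA in capitals. They are shown because they are the sites whose tails were measured.
Hk2, chr6:82725035-82725064, minus strand: ttaactattattAATAAAttttaacttttt
Gpi1, chr7:34202159-34202188, minus strand: cccagctagAATAAAgacacctagaggagg
Aldoa, chr7:126795236-126795265, minus strand: cccactgccAATAAAcaactatttaagggg
Tpi1, chr6:124810715-124810744, minus strand: catgtaagggaAATAAAcacctgggcctga
Gapdh, chr6:125161854-125161883, minus strand: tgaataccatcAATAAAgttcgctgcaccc
Pgk1, chrX:106203665-106203694, plus strand: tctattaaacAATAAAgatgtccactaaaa
Pgam1, chr19:41918631-41918660, plus strand: atcagtatAATAAAggagtgatgtgcaata
Eno1, chr4:150248844-150248873, plus strand: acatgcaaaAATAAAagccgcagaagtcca
Pkm, chr9:59679341-59679370, plus strand: cctgaatgtcAATAAAcagcagctgaagca
Ldha, chr7:46855598-46855627, plus strand: tgtcatgccaAATAAAaccttgaacagtga

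All 10 windows lay in the annotated 3′ UTR and held AATAAA in the sense of the transcript, ending 12 to 16 bases before the most frequent read end. Among genes with at least 200 kept reads, 1394 had such a window in these sequences, and 69.4% of the windows held AATAAA, as did 81.0% of 79 ribosomal protein genes. In 8 members the most frequent end lay within 10 bases of the annotated end of the transcript. The reads of Tpi1 ended 129 bases before the annotated end, and 91.3% of those on its main transcript ended within 10 bases of that position. Gpi1 ended 829 bases before it, with 47.3% of reads within 10 bases, so Gpi1 molecules ended at more than 1 site. The median tail of Gpi1 was 116 nt for the 415 reads that ended at the frequent site and 109 nt for the 463 that ended elsewhere.

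Most members were read mainly from 1 transcript. Pkm-201 took 7061 of 7062 Pkm reads, Pgam1-201 and Hk2-201 all reads of their genes, and Pgk1-201 all but 2 of 4550. Gapdh was split between Gapdh-203 (70.3% of 24027 reads) and Gapdh-202 (23.5%), which share their 3′ end and differ at the 5′ end. The reads of each had a median mapping quality of 1, with median alignments of 1238 nt for Gapdh-203 and 722 nt for Gapdh-202. Reads that stop short of the 5′ side cannot tell these transcripts apart, so the assignment is uncertain. Only 8.42% of Gapdh reads and 10.5% of Eno1 reads had a mapping quality of 10 or more, while 0.212% and 0.371% of their reads aligned to another gene as well. Values of these genes that require a mapping quality of 10 therefore rest on few reads.

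Most members were abundant, and the order of the highest ones was the same in every library. Gapdh, which encodes the dehydrogenase step that yields NADH, stood at 10805 to 12866 RPM in all 10 libraries. Pkm, the pyruvate kinase gene of most proliferating cells, followed at 3137 to 4090, and Ldha, the lactate dehydrogenase subunit that favours lactate, at 2452 to 3329. Each of these steps in the order held in 10 of 10 libraries.

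Eno1 (enolase), Pgk1 (phosphoglycerate kinase), Aldoa (aldolase), Tpi1 (triose-phosphate isomerase) and Pgam1 (phosphoglycerate mutase) lay close together, with means over the 10 libraries of 2413, 2268, 2182, 1974 and 1824 RPM. Neighbours in that order kept it in 7 to 9 of 10 libraries, with the smallest gap between Pgk1 and Aldoa (85.9 RPM on average, 7 of 10). Gpi1 (glucose-6-phosphate isomerase) was lower at 385 to 655 RPM. Hk2, the inducible hexokinase that phosphorylates glucose at the entry of the pathway, gave 1 to 13 reads per library, and its values are too thin for any tail comparison.

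**Figure D1:**
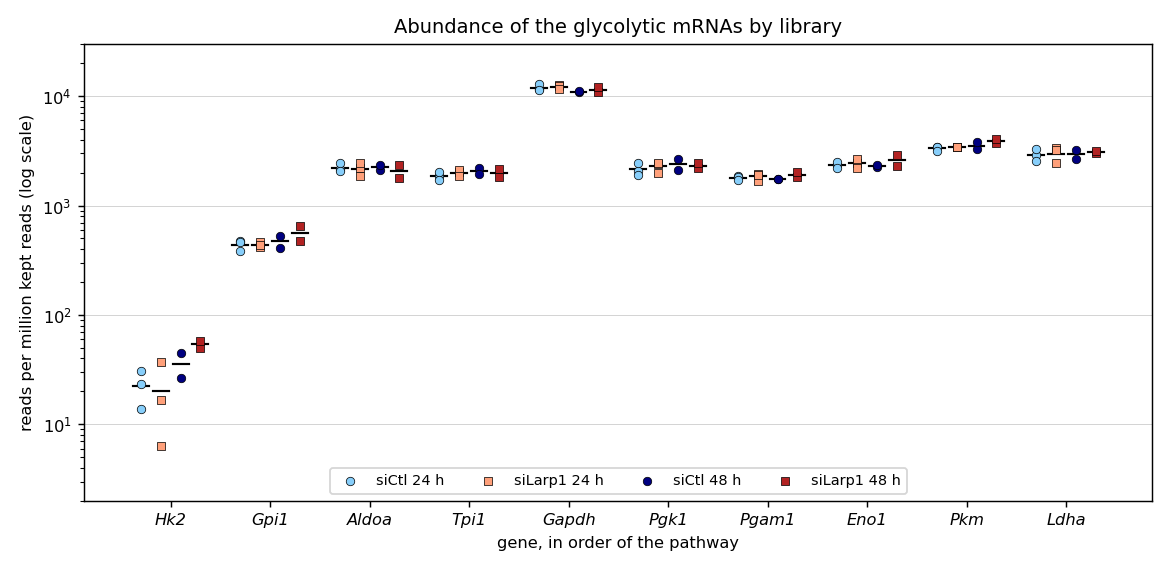
Level of each of the 10 genes in RPM (log scale), in the order of the pathway, with 1 point per library and a bar at the mean of each group (n = 3 at 24 h and n = 2 at 48 h). Gapdh sits between 10805 and 12866 in every library and Hk2 below 60, and the groups of each gene lie at nearly the same height.

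Reducing Larp1 did not move the level of any member past the test. In the voom fit over all genes, 0 of 10 members passed an adjusted p of 0.05 at 24 h, where 0% of 5857 genes passed, and 0 of 10 passed at 48 h, where 0.0341% passed. None had an unadjusted p under 0.05 in either contrast, against 342 and 289 of all genes. The sum over the 10 members took 2.91 ± 0.217% of kept reads in siCtl and 2.98 ± 0.177% in siLarp1 at 24 h (n = 3 and 3), and 2.87 ± 0.141% and 3.00 ± 0.275% at 48 h (n = 2 and 2).

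The intervals show how large a change the reads could have missed. For Gapdh the fold was 1.01 at 24 h (95% interval 0.969 to 1.06) and 1.02 at 48 h (0.959 to 1.09). For Pkm it was 1.04 (0.961 to 1.13) and 1.08 (0.962 to 1.21). Over the members other than Hk2 the log2 fold changes ran from -0.04 (Aldoa) to 0.11 (Tpi1) at 24 h and from -0.15 (Aldoa) to 0.20 (Gpi1) at 48 h. Hk2 was at 22.6 ± 8.47 and 20.1 ± 15.8 RPM at 24 h and 35.7 ± 12.8 and 53.7 ± 6.15 at 48 h in siCtl and siLarp1, and its interval at 48 h spanned -0.62 to 1.59 on the log2 scale. The median log2 fold change was 0.04 over the 10 members and 0.02 over all genes at 24 h, and 0.08 and 0.05 at 48 h.

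At 48 h the siLarp1 libraries lay above the siCtl libraries without overlap for Pgam1 and Hk2. Pgam1 was at 1757 and 1735 RPM in siCtl and at 1814 and 2024 in siLarp1. With 2 libraries a side such a separation was found upwards in 18.2% of all genes tested. At 24 h it was found upwards in 5.05% and downwards in 6.06% of all genes, and for no member.

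Most members had long tails compared with the other mRNAs of these cells, while Tpi1 lay near the middle and Ldha below it. Averaged over the 10 libraries, the medians ran from 99.0 nt (Ldha) to 120 nt (Pgam1) over the 9 members with at least 10 reads in every library. The middle member was at 112 nt, against 102 nt for all 1267 such genes and 94.6 nt for the 79 ribosomal protein genes. Ldha stood above 38.0% of the 1267 genes, Tpi1 above 51.1% and Gapdh above 65.5%. The remaining members stood above 77.5% (Pkm) to 93.4% (Pgam1). Tails under 30 nt were rare, at 0.876% in the middle member against 2.87% over all genes and 2.78% over the ribosomal protein genes. Aldoa (0.479%) and Pgk1 (0.575%) had the lowest shares among the members and stood above 2.84% and 4.42% of the 1267 genes.

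Tail lengths also differed among the members, in an order that was only partly kept from library to library. Pgam1 was longer than Aldoa in 9 of 10 libraries, by 4.96 ± 5.02 nt (mean ± SD over libraries). Aldoa, Pgk1, Gpi1 and Eno1 lay within 112 to 115 nt, and neighbours among them kept their order in only 5 or 6 of 10 libraries. Pkm was longer than Gapdh in 10 of 10 libraries, by 3.63 ± 2.97 nt, Gapdh longer than Tpi1 in 9, and Tpi1 longer than Ldha in 8. On these averages Aldoa and the enzymes that follow Gapdh, down to Pkm, lay above Tpi1 and Ldha. Hk2 had a median of 134 nt over its 59 reads from all libraries, and 0 of the 59 were under 30 nt, which allows a share of up to 5.08%.

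**Figure D2:**
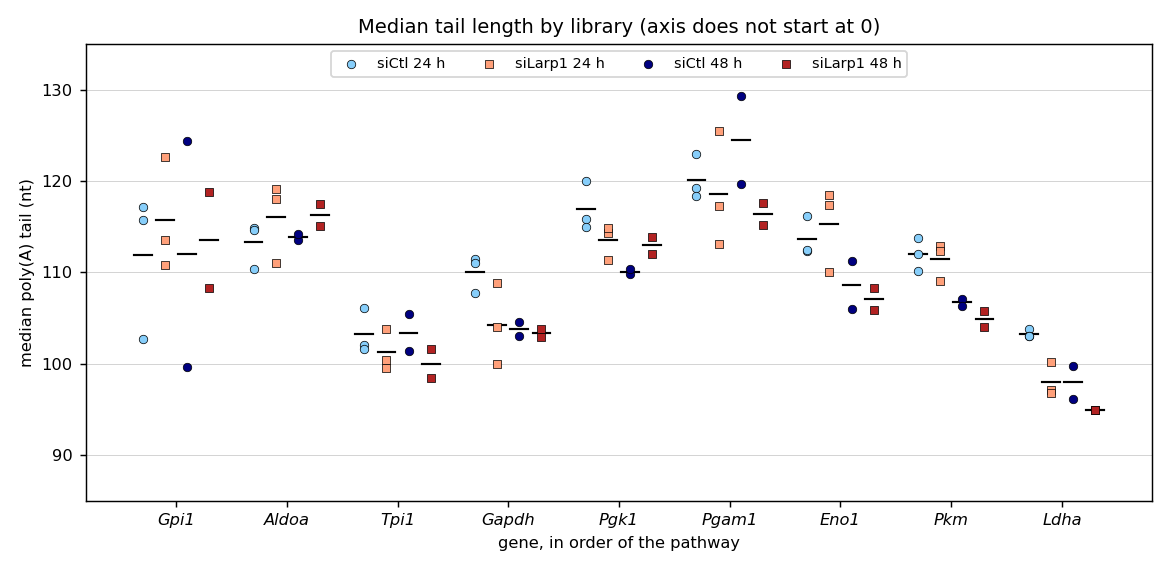
Median poly(A) tail in nt (axis not starting at 0) of 9 members in the order of the pathway, 1 point per library with a bar at the group mean. Pgam1 is the longest and Ldha the shortest, while Gpi1, with 46 to 163 reads per library, scatters most. At 24 h siCtl and siLarp1 overlap in all but Pgk1 and Ldha, where siLarp1 is lower. At 48 h siLarp1 lies above siCtl in Aldoa and Pgk1, below it in Pgam1, Pkm and Ldha, and overlaps it in the others.

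The reads of some members carried less of the 5′ side at 48 h than at 24 h. Pkm alignments had a median length of 2012 to 2154 nt in siCtl and 1794 to 2084 nt in siLarp1 at 24 h, and 1152 to 1922 nt and 1352 to 1445 nt at 48 h. Ldha, a shorter mRNA, went from 1566 to 1568 nt in siCtl at 24 h to 1487 and 1560 nt at 48 h. Tpi1 alignments kept nearly the same length, at 1324 to 1325 nt and 1319.5 to 1324 nt. Of the siCtl libraries at 48 h, number 25 had shorter median alignments than 24 in all members but Hk2. Tails are read before the body of the molecule. With the reads of all libraries pooled, Pkm alignments shorter than the median length had 1.42% of tails under 30 nt and the longer ones 0.736%. For Eno1 these shares were 0.885% and 0.444%, for Pgk1 0.742% and 0.251%, for Gapdh 1.75% and 1.34%, and for Tpi1 1.92% and 0.833%. Ldha lay the other way, at 0.633% and 0.931%. The share of each group among shorter and longer alignments was not held equal. The part of read length in the comparison of tails was not tested.

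Median tails did not pass the test in any member. Of 9 members tested, 0 were called at 24 h and 0 at 48 h with limma, as were 0% of 1398 genes, and 0 members had an unadjusted p under 0.05, against 74 and 87 of all genes. Ldha stood at 104, 103 and 103 nt in siCtl and 97.2, 96.8 and 100.2 nt in siLarp1 at 24 h, and at 99.7 and 96.2 nt against 94.9 and 94.9 nt at 48 h. The siLarp1 libraries lay below siCtl at both times, by 5.25 nt (95% interval of the difference -12.5 to 2.03) and 3.06 nt (-12.0 to 5.86). At 24 h 6.08% of all genes, and at 48 h 13.0%, showed such a separation downwards. Pgk1 was also separate downwards at 24 h, as were Pgam1 (difference of means -8.09 nt) and Pkm (-1.8 nt) at 48 h. Aldoa (2.5 nt) and Pgk1 (2.9 nt) were separate upwards at 48 h, as were 21.5% of all genes. Gapdh medians were 111, 108 and 111 nt in siCtl and 104, 100.0 and 109 nt in siLarp1 at 24 h, which overlap, and 105 and 103 nt against 103 and 104 nt at 48 h. The median of the differences over the 9 members was -1.54 nt at 24 h and -1.53 nt at 48 h, against 1.07 and 2.52 nt over all genes.

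**Figure D3:**
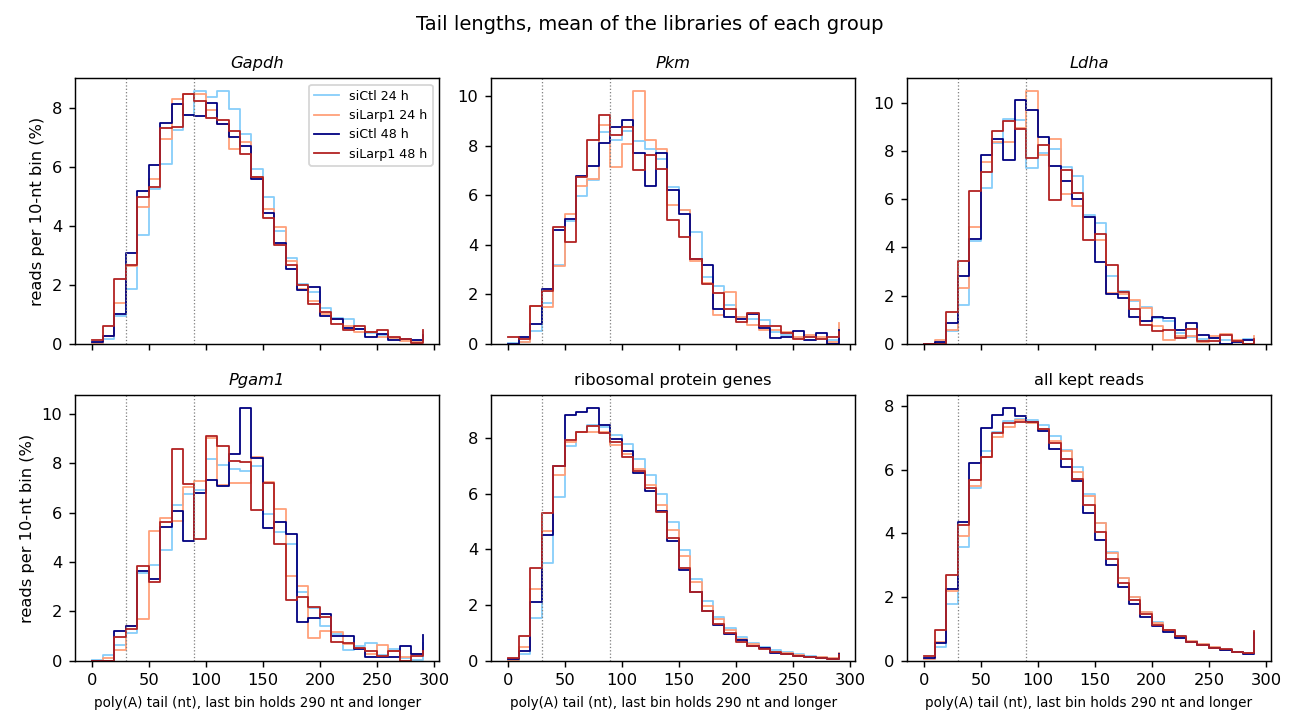
Poly(A) tail lengths in nt on the horizontal axis and the share of reads per 10-nt bin on the vertical axis, each line the mean of the libraries of 1 group, for 4 members, the ribosomal protein genes and all kept reads. The dotted lines at 30 and 90 nt bound the classes used below, and the members show few reads under 30 nt and a broad peak near 100 nt in all 4 groups.

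Tails under 30 nt became more frequent in Gapdh, and over both times in Pkm, in the siLarp1 libraries. Gapdh had 34 short tails of 3386 reads, 62 of 4429 and 50 of 4793 in the siCtl libraries at 24 h, which are shares of 1.00%, 1.40% and 1.04%. The siLarp1 libraries at 24 h had 1.13%, 2.54% and 1.42%, from 17, 42 and 26 short tails. At 48 h the siCtl libraries had 0.975% and 1.66%, and the siLarp1 libraries 3.60% (exact 95% binomial interval 2.78 to 4.58%) and 2.19% (1.50 to 3.08%). The groups overlapped at 24 h and were separate at 48 h, where siLarp1 was higher, as in 27.5% of the 977 genes tested.

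The share of short Gapdh tails rose at 48 h, with an odds ratio of 2.15 (95% interval 1.48 to 3.13, adjusted p = 0.0043). At 24 h the odds ratio was 1.48 (1.12 to 1.96) and did not pass over all genes (adjusted p = 0.116). Its log2 value of 0.57 was 0.16 without siLarp1 21 (adjusted p = 0.910), and it passed at 0.74 without siCtl 21 (adjusted p = 0.0401) and at 0.76 without siLarp1 19 (adjusted p = 0.0393). Averaged over both times it was 1.78 (1.41 to 2.26, adjusted p = 7.8e-05). The effects at 48 h and 24 h did not differ past the test (ratio of odds ratios 1.45, 0.909 to 2.33, adjusted p = 0.812). These tests used a quasi-binomial model of the reads across all genes with Benjamini-Hochberg adjustment. The 48 h call rested on single libraries: without siCtl 24 the log2 odds ratio was 0.85 with adjusted p = 0.162, and without siLarp1 24 it was 0.66 with adjusted p = 0.644, so that it was no longer called. It was also lost with a limit of 40 nt in place of 30 nt, where the log2 odds ratio was 0.36 (adjusted p = 0.484). With a limit of 20 nt, at 1.21 (adjusted p = 0.150), and with a mapping quality of at least 10, at 2.35 (adjusted p = 0.467), it was lost although the estimate was above the 1.11 of all kept reads. Over both times Gapdh lost its call without siLarp1 24 (log2 odds ratio 0.61, adjusted p = 0.0767), with a limit of 20 nt (0.91, adjusted p = 0.0650) and with a mapping quality of at least 10 (1.53, adjusted p = 0.330).

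The rise in Gapdh was seen in the reads assigned to each of its main transcripts and in both runs. At 48 h Gapdh-203 went from 0.960 ± 0.336% in siCtl to 2.47 ± 1.26% in siLarp1, and Gapdh-202 from 2.03 ± 0.157% to 3.80 ± 0.312% (n = 2 and 2). The 2 runs of the 48 h pool gave 0.989% and 0.935% for siCtl 24, 1.70% and 1.54% for siCtl 25, 3.81% and 3.02% for siLarp1 24, and 2.04% and 2.61% for siLarp1 25. The lowest siLarp1 value was above the highest siCtl value in each run. Both runs read the same libraries, so they are not further replicates.

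Pkm had fewer short tails than Gapdh and a clearer separation at 24 h. Its shares were 0.599%, 0.764% and 0.527% in siCtl and 1.69%, 1.73% and 1.30% in siLarp1, from 6, 9 and 7 short tails against 7, 8 and 7. At 48 h they were 1.09% and 1.03% in siCtl and 1.16% and 2.84% in siLarp1. The groups did not overlap at either time, although siLarp1 24 exceeded siCtl 24 by little. Of all genes tested 11.2% were separate in this direction at 24 h and 27.5% at 48 h. Within each run of the 48 h pool the Pkm groups overlapped, on 99 to 486 reads a library. Runs 1 and 2 gave 0% and 4.04% for siCtl 24 and 1.03% and 1.04% for siCtl 25. For siLarp1 24 they gave 0.959% and 1.63%, and for siLarp1 25 2.86% and 2.75%.

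For Pkm neither time passed alone, with odds ratios of 2.50 (95% interval 1.34 to 4.66, adjusted p = 0.0788) at 24 h and 1.84 (0.852 to 3.97, adjusted p = 0.507) at 48 h. Averaged over both times, the share rose with an odds ratio of 2.15 (1.31 to 3.52, adjusted p = 0.0364). That call was lost without any 1 of 7 libraries: without siCtl 19, 22, 24 or 25 the adjusted p was 0.0523, 0.0620, 0.0648 and 0.201, and without siLarp1 19, 21 or 25 it was 0.0680, 0.0779 and 0.441. In those fits the log2 odds ratio stayed between 0.74 and 1.12. It was lost as well with a limit of 40 nt (0.38, adjusted p = 0.551), with all quality tags (0.60, adjusted p = 0.0919), with a barcode confidence of at least 0.9 (0.87, adjusted p = 0.168) and with reads aligned to 1 gene (1.07, adjusted p = 0.0512), and with a limit of 20 nt the estimate was -0.0087. Pkm reads were almost all of mapping quality 10 or more (99.5%).

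Of the 10 members, 8 had enough reads and short tails to be tested, and Hk2 and Gpi1 did not, with 0 and 8 short tails in all. None of the 8 was called at 24 h, where 3.99% of 977 genes were called, all upwards. At 48 h 1 of 8 was called, against 2.25% of all genes, and over both times 2 of 8, against 6.04%. The log2 odds ratio was above 0 in 7 of 8 members at 24 h and in 6 of 8 at 48 h, beside 585 and 628 of all 977 genes. Its median over the members was 0.60 at 24 h and 0.78 at 48 h, beside 0.28 and 0.42 over all genes and 0.87 and 0.92 over the 78 ribosomal protein genes tested. Of these ribosomal protein genes 34 were called at 24 h, 19 at 48 h and 48 over both times. These counts depend on how many short tails each gene gave, and the members other than Gapdh gave 0 to 76 each over all libraries.

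**Figure D4:**
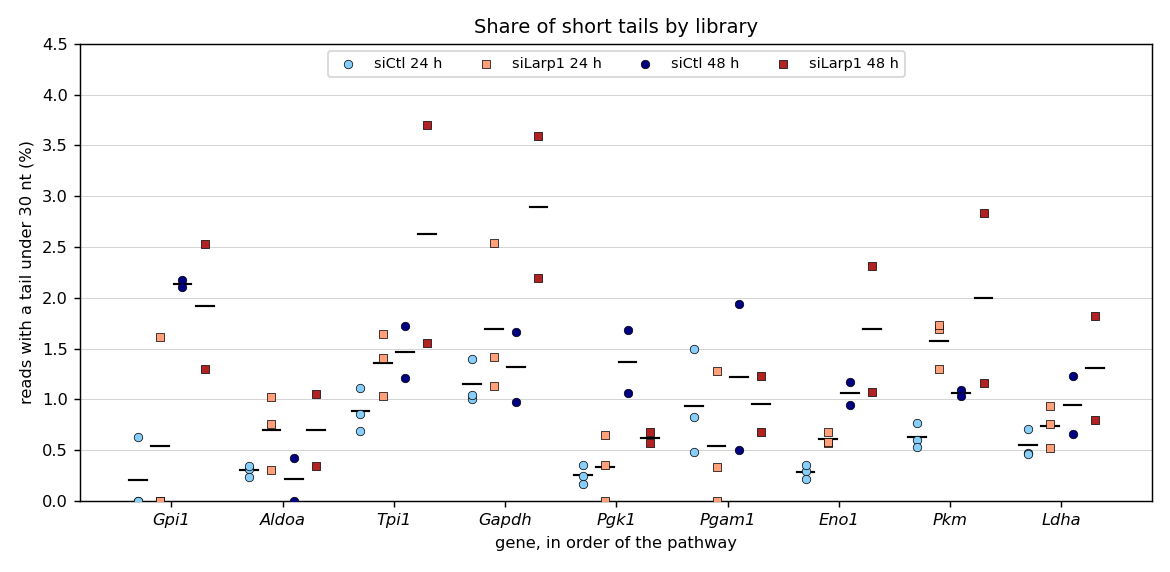
Percent of reads with a tail under 30 nt for 9 members in the order of the pathway, 1 point per library with a bar at the group mean. At 48 h both siLarp1 libraries of Gapdh (3.60% and 2.19%) lie above both siCtl libraries, Pkm separates at both times, and Pgk1 at 48 h lies in the other direction.

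The members that did not pass had few short tails and wide intervals. Eno1 had 0.295%, 0.350% and 0.216% in siCtl and 0.678%, 0.567% and 0.580% in siLarp1 at 24 h, without overlap, from only 2 or 3 short tails in each library. Its log2 odds ratio was 1.09 (95% interval -0.56 to 2.75) at 24 h and 0.71 (-0.71 to 2.12) at 48 h. Tpi1 was at 0.886 ± 0.210% and 1.36 ± 0.305% at 24 h and at 1.46 ± 0.367% and 2.63 ± 1.52% at 48 h in siCtl and siLarp1. Aldoa had 0 to 3 short tails in each library, and Ldha 2 to 9.

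Pgam1 at both times, and Pgk1 at 48 h only, had their estimates on the other side. At 24 h the log2 odds ratio of Pgk1 was 0.29 (95% interval -1.81 to 2.39). Pgk1 was at 1.68% and 1.06% in siCtl and 0.565% and 0.680% in siLarp1 at 48 h, from 4 and 5 against 2 and 2 short tails, with a log2 odds ratio of -1.05 (95% interval -2.84 to 0.74). At 48 h 10.0% of genes tested had siLarp1 libraries all below siCtl. For Pgam1 the log2 odds ratio was -0.78 (-2.43 to 0.87) at 24 h and -0.57 (-2.32 to 1.17) at 48 h. None of these intervals excludes either direction.

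Summed over the 9 members without Gapdh, short tails made up 0.529 ± 0.0684% of reads in siCtl and 0.868 ± 0.119% in siLarp1 at 24 h (n = 3 and 3), and 1.06 ± 0.0786% and 1.48 ± 0.218% at 48 h (n = 2 and 2), with no overlap at either time. Over all kept reads the share was 2.15 to 2.42% in siCtl and 2.63 to 3.22% in siLarp1 at 24 h, and 2.82 to 2.96% and 3.37 to 4.20% at 48 h, so the whole libraries moved in the same direction.

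Tails of 30 to 90 nt, the class the study calls about 60 nt, rose in Gapdh at 24 h. The shares were 31.8%, 32.8% and 31.4% in siCtl and 37.7%, 38.2% and 34.0% in siLarp1, without overlap, with an odds ratio of 1.22 (95% interval 1.14 to 1.31, adjusted p = 0.00017). Of all genes tested 4.75% were separate upwards at 24 h and 23.4% downwards at 48 h. Without siLarp1 21 the log2 odds ratio at 24 h was 0.24 and no longer passed (adjusted p = 0.0718), and with a mapping quality of at least 10 it was 0.34 and did not pass (adjusted p = 0.777). At 48 h the shares were 36.7% and 38.7% in siCtl and 36.1% and 36.2% in siLarp1, again without overlap but in the other direction, and the odds ratio of 0.926 (0.833 to 1.03) did not pass (adjusted p = 0.834). The difference between the effects at the 2 times, -0.40 on the log2 scale (-0.59 to -0.21), missed the threshold over all genes (adjusted p = 0.0693) and passed it without siCtl 21 (adjusted p = 0.0169) or without siLarp1 22 (adjusted p = 0.0035).

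By transcript, Gapdh-203 had 30.5 ± 0.788% and 35.4 ± 2.19% of such tails at 24 h and 35.0 ± 2.02% and 35.5 ± 0.245% at 48 h in siCtl and siLarp1. Gapdh-202 had 37.9 ± 0.206% and 41.0 ± 3.55% at 24 h, and 43.1 ± 1.81% and 37.2 ± 0.897% at 48 h. The siLarp1 values at 48 h were thus lower in reads assigned to Gapdh-202 and not in those assigned to Gapdh-203. This assignment is uncertain for reads that stop short of the 5′ side. Whether the reads differ by transcript or by aligned length was not tested. The share of Gapdh reads assigned to Gapdh-202 was 18.4 ± 0.782% in siCtl and 24.5 ± 2.12% in siLarp1 at 24 h. At 48 h it was 31.5 ± 8.60% and 31.6 ± 1.45%. What this share does to the Gapdh values was not tested.

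No other member passed in this class. At 24 h 1 of 9 members tested was called, against 0.23% of 2611 genes, and at 48 h 0 of 9, against 0%. Pgk1 was at 22.6%, 25.8% and 28.9% in siCtl and 28.3%, 33.2% and 27.2% in siLarp1 at 24 h, which overlap, and at 26.5% and 29.0% against 33.3% and 32.0% at 48 h, where 10.5% of all genes were separate upwards. Its log2 odds ratios were 0.26 (95% interval 0.01 to 0.52, adjusted p = 0.764) and 0.31 (-0.04 to 0.66, adjusted p = 0.805). Gpi1 lay the other way at 24 h, from 38.2%, 30.8% and 33.7% to 26.0%, 22.6% and 25%, on 50 to 163 reads a library, with adjusted p = 0.62, and 7.13% of all genes were separate downwards. Tpi1 was separate upwards at 24 h (mean 37.9% in siCtl and 40.1% in siLarp1), as were 4.75% of all genes. At 48 h Pgam1 (24.7% and 29.7%) and Ldha (41.4% and 44.1%) were separate upwards. Aldoa (31.1% and 28.4%) was separate downwards at 48 h, as were 23.4% of all genes. The median log2 odds ratio over the members was 0.05 at 24 h and -0.02 at 48 h, beside -0.07 and -0.19 over all genes.

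**Figure D5:**
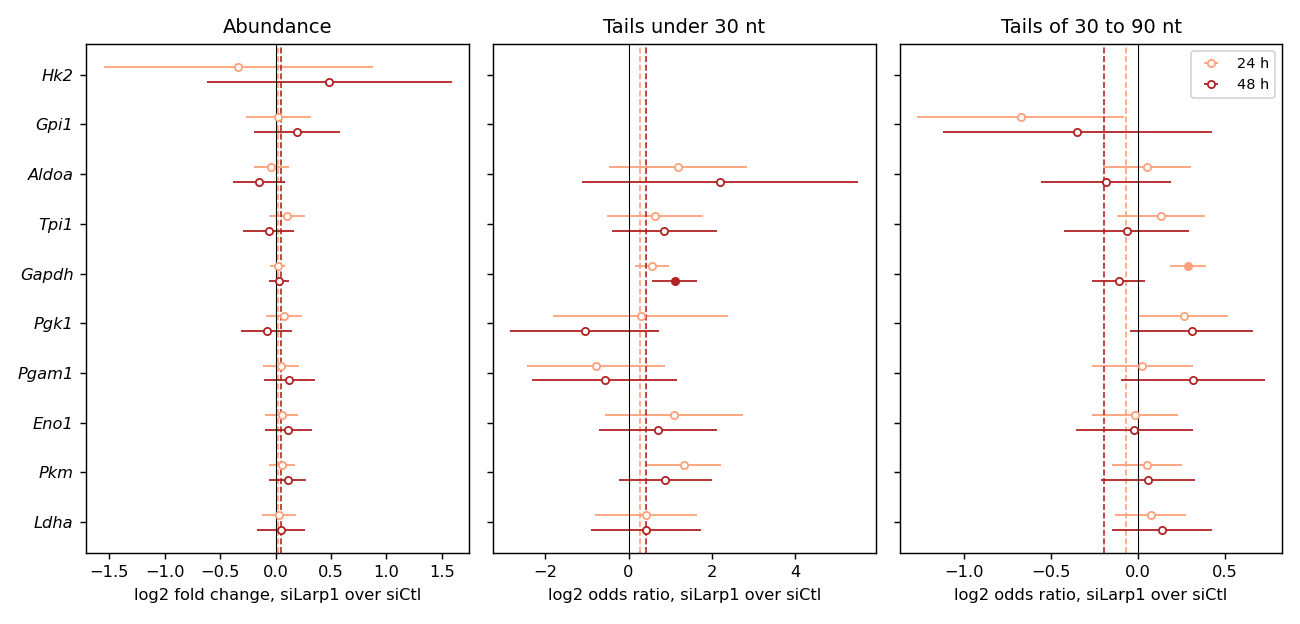
Effects of siLarp1 against siCtl for each member at 24 h (pale) and 48 h (dark), with 95% intervals: log2 fold change of abundance, log2 odds ratio of tails under 30 nt, and log2 odds ratio of tails of 30 to 90 nt. Filled points passed an adjusted p of 0.05 (Gapdh under 30 nt at 48 h, Gapdh at 30 to 90 nt at 24 h), dashed lines are the medians of all genes tested, and Hk2 and Gpi1 had too few reads of a class to be shown in some panels.

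The siCtl libraries themselves differed between 48 h and 24 h, a contrast in which time, the additional transfection and the pool cannot be told apart. In abundance 0 of 10 members passed, against 1.09% of all genes. Gapdh had a log2 fold change of -0.11 (95% interval -0.19 to -0.03, adjusted p = 0.168, or 0.0275 without siCtl 22) and Pgk1 of 0.19 (0.00 to 0.37, adjusted p = 0.411). Tails of 30 to 90 nt rose in 1 of 9 members, Gapdh (odds ratio 1.30, 1.19 to 1.42, adjusted p = 1.2e-06), against 0.919% of all genes, and this call was lost without siCtl 25 (log2 odds ratio 0.30, adjusted p = 0.225) and with a mapping quality of at least 10 (0.14, adjusted p = 0.922). Without siCtl 25 the genes called in all fell from 64 to 3 in abundance and from 24 to 3 in this tail class. Tails under 30 nt passed in 0 of 8, against 0% of all genes, although Pgk1 went from 0.166 to 0.352% at 24 h to 1.06 and 1.68% at 48 h (log2 odds ratio 2.27, 0.71 to 3.84, adjusted p = 0.266) and Eno1 from 0.216 to 0.350% to 0.943 and 1.17% (1.87, 0.28 to 3.46, adjusted p = 0.5). The median tails of 6 of 9 members were lower at 48 h, and over the members the median difference was -5.05 nt beside -5.22 nt over all genes.

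The other genes of glucose use were read far less and none passed in a comparison of siLarp1 with siCtl. Of 19 other glycolytic genes 8 had the 30 reads that the abundance fit required, of 15 genes of glucose and lactate transport and its control 9, of 7 genes of the pentose phosphate pathway 6, and of 7 genes of pyruvate entry into mitochondria 7. None of these 30 genes was called in abundance at 24 h, at 48 h or over both times, where 0.154% of all genes were called over both times.

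Pfkl, the liver type of phosphofructokinase, the main control step of glycolysis, was at 232 ± 21.8 and 280 ± 27.9 RPM at 24 h and 247 ± 110 and 387 ± 110 at 48 h in siCtl and siLarp1, with a log2 fold change over both times of 0.43 (95% interval 0.12 to 0.74, adjusted p = 0.606). Taldo1, the transaldolase of the pentose phosphate pathway, was at 261 ± 12.9 and 322 ± 12.9 at 24 h and 248 ± 37.1 and 338 ± 50.2 at 48 h (0.35, 0.06 to 0.64, adjusted p = 0.737). Tkt, the transketolase of that pathway, had a log2 fold change over both times of 0.06 (-0.18 to 0.31), Ldhb, the other lactate dehydrogenase subunit, of 0.17 (-0.29 to 0.62), and Bsg, the partner protein of lactate carriers, of 0.14 (-0.08 to 0.36). Pdha1 and Pdhb, subunits of pyruvate dehydrogenase, had values of -0.31 (-0.69 to 0.07) and 0.19 (-0.17 to 0.56). Slc16a3, the lactate exporter, had -0.04 (-0.25 to 0.18).

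Slc16a3 and Slc2a3 were the genes of these lists that passed in siCtl at 48 h against 24 h, where 1.09% of all genes passed. Slc2a3 was named after its values were seen. Time, the additional transfection and the pool cannot be told apart in this contrast. How far the calls of these genes rest on single libraries is not given here. Slc16a3 went from 564 ± 58.5 to 814 ± 90.8 RPM (log2 fold change 0.52, adjusted p = 0.0403). Slc2a3, a high-affinity glucose transporter, went from 324 ± 60.7 to 563 ± 106 RPM (log2 fold change 0.86, adjusted p = 0.0020).

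Across the 10 libraries the levels of most pairs of members correlated positively. Over the 36 pairs of the 9 members with at least 200 reads, Pearson's r of the log2 level had a median of 0.50, from -0.10 (Aldoa and Pgam1) to 0.95 (Gpi1 and Pkm), and 35 of 36 were above 0. All genes of a library share its depth, its pool and its total, so these values are a description. The mean profile of the 9 members, on the log2 scale, was -0.03, 0.07, -0.16, -0.07 and 0.06 in siCtl 19, 21, 22, 24 and 25, and 0.04, 0.07, -0.11, -0.05 and 0.18 in the siLarp1 libraries of those numbers. Both libraries numbered 22 and both numbered 24 thus lay below 0, and those numbered 21 and 25 above it. Within a number siLarp1 was higher by 0.02 to 0.12 for 19, 22, 24 and 25, and not for 21. The numbers were not taken to pair the libraries, so this is no paired comparison. Of 1394 genes with at least 200 reads, members left out, those most like this profile over the 10 libraries were Ddit4 (r = 0.93), a stress-induced inhibitor of mTOR signalling, Hspb1 (0.81), a small heat shock protein, Psap (0.81), Rab1a (0.80) and Srp9 (0.78).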

How the data were processed

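Poly(A)-selected RNA of P19 cells was sequenced as native molecules (direct RNA kit SQK-RNA002). Per the study's methods, the authors called bases with Guppy, assigned barcodes with Deeplexicon, aligned reads with minimap2 (2.20) to mouse mm10 transcripts of GENCODE and estimated tails with Nanopolish. In the deposited table every alignment of a read has its own line. Besides the tail in nt, the authors gave how sure the barcode call was (a fraction) and how well the read mapped (a score), and no value was normalized. Counts per gene were tallied here. The labels did not say which replicate each library is, so libraries carry the table's numbers. Groups came from the labels and the condition column.

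Reads aligned to mRNA with the tag PASS were kept (2041970 reads counted per gene, without pseudogene and mitochondrial sequences), each read once per gene. For the members 82.8 to 88.1% of alignments carried that tag. All fits ran over the whole table, 10 libraries together, with a mean for each of 4 groups. Abundance was fitted with limma 3.58.1 voom on tallied counts scaled to kept reads (genes with at least 30 reads). Shares of tails under 30 nt and of 30 to 90 nt were fitted with a quasi-binomial model whose dispersions were moderated with limma's squeezeVar (at least 100 reads and 10 tails in the class). Medians were fitted with limma, weighted by reads up to 200 (10 or more reads in 2 or more libraries per group). P-values were Benjamini-Hochberg adjusted over all genes tested and called below 0.05. Fits were tested on simulated data. Binomial intervals are exact at 95% and cover counting error only, as does the limit of 3 counts given for a count of 0. R 4.3.3 and Python with pandas and scipy were used.

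The members and lists were chosen with earlier results of these data known. All 10 members are named, with, of each further list, any gene that passed in a comparison of siLarp1 with siCtl and the 2 with most reads, and the 5 other genes, of at least 200 reads, whose log2 level correlated most with the members' mean.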

Additional observations from a re-analysis of the deposited data

Results flagged for a closer look

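The share of Gapdh tails of 30 to 90 nt moved in opposite directions at the 2 times: every siLarp1 library lay above every siCtl library at 24 h, as in 4.75% of all genes tested, and below at 48 h, as in 23.4%. The difference of the effects was -0.40 on the log2 odds scale, with adjusted p = 0.0693 in the quasi-binomial fit over all genes.

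The median tail of Pgk1 lay below siCtl in every siLarp1 library at 24 h (111 to 115 nt against 115 to 120 nt) and above it at 48 h (112 and 114 nt against 110 and 110 nt). Of all genes tested 6.08% were separate downwards at 24 h and 21.5% upwards at 48 h. The difference of the effects was 6.30 nt (95% interval -5.30 to 17.9), with adjusted p = 0.966 in limma.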

How the results depend on the processing

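Of 374 recounts of called members under other settings, 337 equalled the number reported or lay within 1.5 times of it. For most measures and contrasts the number reported was 0, so much of this is 0 matched by 0 and says little about the calls made. Outside that range 25 recounts were lower and 12 higher. For tails under 30 nt at 48 h the number fell from 1 to 0 with mapping quality of at least 10 and with short tails set at under 20 or under 40 nt (Gapdh log2 odds ratios 2.35, 1.21 and 0.36, beside 1.11). Over both times it fell from 2 to 0 for tails under 20 nt and to 1 for tails under 40 nt, all quality tags, barcode confidence of at least 0.9, reads aligned to 1 gene, or mapping quality of at least 10. Pkm reversed for tails under 20 nt (log2 odds ratio -0.0087, adjusted p = 1.0). At 24 h the number rose from 0 to 1 (Gapdh) for tails under 40 nt and to 2 (Gapdh, Pkm) with limma on log2 odds. In siCtl at 48 h against 24 h it rose from 0 to 2 (Ldha, Pgk1) with all quality tags and to 1 (Pgk1) with limma on log2 odds. For tails of 30 to 90 nt it fell from 1 to 0 with mapping quality of at least 10, at 24 h and between times of siCtl, and limma on log2 odds called 1 (Gapdh) for the difference of the effects. Abundance in siCtl at 48 h against 24 h rose from 0 to 1 (Gapdh) without a filter or with median-of-ratios scaling. Without 1 library at a time, the number ranged from 0 to 1 for short tails at 24 h and at 48 h, from 1 to 2 over both times, and from 0 to 1 for tails of 30 to 90 nt (24 h, difference of effects, times of siCtl) and for abundance between times of siCtl. Larp1 in siLarp1, 14.9% of siCtl at 48 h, was 21.5% with all quality tags and 9.84% with barcode confidence of at least 0.9, chosen after seeing the data. The causes were not tested.

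Deviations from group means of libraries with the same number correlated at 0.04, 0.25 and 0.23 (19, 21 and 22) and at 0.10 (24 and 25) over 964 genes. As 1 pair lay under 0.1, the numbers were not taken to pair the libraries. At 24 h every siCtl library correlated best with its own number, a hint from the data. For siCtl 19 the margin was small, at 0.04 against 0.03 with siLarp1 22. Libraries of the same number at 24 h also carried the same barcode, so number and barcode cannot be told apart there. At 48 h libraries of the same number had different barcodes. With the replicate block 0 members were called for short tails at 48 h (Gapdh log2 odds ratio 1.06, adjusted p = 0.295) and 0 over both times (Gapdh 0.82, adjusted p = 0.140; Pkm 1.18, adjusted p = 0.0938). Over all genes the block called 18 in place of 59 for short tails over both times, and 0 in place of 39 at 24 h and of 22 at 48 h. In abundance it called 17 in place of 0 at 24 h, 13 in place of 2 at 48 h and 28 in place of 9 over both times. Over all settings these numbers ranged from 18 to 94, 0 to 91, 0 to 31, 0 to 21, 0 to 23 and 2 to 36, and in siCtl at 48 h against 24 h from 3 to 121 in place of 64 for abundance and from 3 to 37 in place of 24 for tails of 30 to 90 nt. Depth left Hk2 without tail tests and Gpi1 without a test of short tails.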

Other observations

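RNA standards, which are in no comparison above, were read at least 20 times only in siCtl 22, siLarp1 22 and siLarp1 25, with 20 to 138 reads each. RNA-Spike-16 had a median tail of 28.2 and 25.6 nt and RNA-Spike-32 of 37.6 and 33.3 nt in siCtl 22 and siLarp1 22. In siCtl 22, siLarp1 22 and siLarp1 25, RNA-Spike-64-A was at 58.3, 60.4 and 59.2 nt. In the same order, RNA-Spike-128-A was at 59.1, 63.1 and 55.6 nt, and RNA-Spike-256-A at 110, 115 and 109 nt. The paper's list of standards includes neither RNA-Spike-128-A nor RNA-Spike-256-A, while it gives the other standards named here an encoded tail. The true tail lengths of the unlisted standards are therefore not known here, and their medians cannot show how accurately tails were measured.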
